A study of Mus musculus with 6 samples.

Results

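Neuronal immediate early genes are the genes that neurons switch on first after strong synaptic activity. The 10 described here, *Fos*, *Fosb*, *Junb*, *Egr1*, *Egr2*, *Egr3*, *Egr4*, *Arc*, *Npas4*, and *Nr4a1*, were chosen by gene symbol, and all 10 were found among the 14477 genes with values. They were measured by RNA-Seq in the hippocampus of 6 mice, with 1 library for each. The Phf21bΔ4/Δ4 group held replicates 2, 3, and 6, and the Phf21b+/+ group held replicates 5, 7, and 8. *Phf21b* encodes a PHD finger protein that reads histone marks, and the Phf21bΔ4/Δ4 allele was made by CRISPR/Cas9 with a pair of guides that disrupt exon 4. Both genotypes were on a C57BL/6J background, received no treatment, and were sampled at baseline. The study used young adult littermates of both sexes, and neither the sex nor the age of each of these mice is labelled. The Phf21bΔ4/Δ4 mouse is a knockdown model rather than a null allele, and the RNA came from bulk hippocampal tissue, in which fewer cells of a type and less RNA per cell cannot be told apart.

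Calcium entering an active neuron starts kinase cascades that act on transcription factors already bound to these genes, among them CREB at cAMP response elements (CREs) and serum response factor at CArG boxes. Transcription then starts within minutes and needs no new protein. Most of the genes encode transcription factors that act on later genes, *Arc* encodes a protein that works at the synapse, and in the hippocampus the group is widely used as a record of recent neuronal activity. The study asked, among other things, whether PHF21B acts through CREB, and the comparison below asks whether the resting level of the immediate early genes differed between the genotypes.

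The promoter sequences are shown because the CRE is the element that links this family to CREB. The RefSeq promoter table of GRCm38.p6 held windows (250 bases before the start site and 50 after it) for 7 of the 10 members. *Arc*, *Egr1*, and *Egr3* have no entry in that table. The CRE core TGACG, searched on both strands so that it also reads CGTCA, was found in a window of all 7 members, while at least 1 is in 20.8% of all 32851 windows and in 29.5% of the 14533 windows of listed genes. The *Nr4a1* window held 4 cores, and 4 or more are in 0.231% of all windows and 0.475% of those of listed genes. The 250 bases before the start site are given for *Nr4a1* and *Fosb*, in which the genotypes did not overlap, and for *Fos* and *Npas4*, in which they did, with the CRE cores in capitals. They lie at chr15:101266596-101266845 (plus strand) for *Nr4a1*, chr7:19310046-19310295 (minus strand) for *Fosb*, chr12:85473640-85473889 (plus strand) for *Fos*, and chr19:4989972-4990221 (minus strand) for *Npas4*.
Nr4a1: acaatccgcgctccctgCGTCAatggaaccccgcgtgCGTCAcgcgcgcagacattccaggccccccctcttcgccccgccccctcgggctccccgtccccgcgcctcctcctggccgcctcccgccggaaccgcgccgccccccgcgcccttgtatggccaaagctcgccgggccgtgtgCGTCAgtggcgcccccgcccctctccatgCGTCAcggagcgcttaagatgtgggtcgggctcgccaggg
Fosb: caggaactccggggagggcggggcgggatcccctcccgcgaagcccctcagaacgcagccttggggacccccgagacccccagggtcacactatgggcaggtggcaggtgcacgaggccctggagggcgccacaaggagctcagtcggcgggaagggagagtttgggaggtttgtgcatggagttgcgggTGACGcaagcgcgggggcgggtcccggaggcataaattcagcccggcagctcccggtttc
Fos: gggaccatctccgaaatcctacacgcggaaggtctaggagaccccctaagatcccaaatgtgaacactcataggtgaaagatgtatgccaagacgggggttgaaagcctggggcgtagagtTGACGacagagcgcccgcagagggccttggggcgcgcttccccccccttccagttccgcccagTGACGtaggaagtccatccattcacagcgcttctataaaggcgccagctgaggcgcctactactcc
Npas4: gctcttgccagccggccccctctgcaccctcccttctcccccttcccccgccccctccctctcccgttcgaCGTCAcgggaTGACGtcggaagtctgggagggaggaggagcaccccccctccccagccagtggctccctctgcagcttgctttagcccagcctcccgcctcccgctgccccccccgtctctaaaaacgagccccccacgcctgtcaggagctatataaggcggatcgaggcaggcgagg
Counted from the start site, the *Nr4a1* cores begin at -233, -213, -69, and -40, and this start site lies 12577 bases inside the *Nr4a1* gene as GENCODE draws it. *Fosb* has 1 core at -60, *Fos* has cores at -129 and -66, and the cores of *Npas4* at -179 and -169 lie close together on opposite strands. *Egr4* also has 2 cores, *Junb* has 1, and *Egr2* has 2 in each of 3 overlapping windows and 0 in its other 2 windows. The full palindrome TGACGTCA was in none of the members' windows, in 1.79% of all windows, and in 2.90% of those of listed genes. An EGR site, GCGTGGGCG or GCGGGGGCG, was in the windows of *Nr4a1* and *Fosb* and in 3.47% of all windows, or 6.45% of those of listed genes. The TATAAA motif was in the windows of *Fos* and *Junb* (13.6% of all windows and 7.46% of those of listed genes). The CArG box was among the members only in windows of *Egr2* (1.63% and 1.25%), and the AP-1 sites TGAGTCA and TGACTCA were in none of the members' windows (5.20% and 3.59%). These matches describe the letters in the windows and do not show that a factor was bound. A site more than 250 bases before a start site, or in *Arc*, *Egr1*, or *Egr3*, would not be seen. A motif absent from the windows may therefore still be present at the gene.

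Each library had 20495605 to 24881257 reads on these genes. Levels are in CPM, the read counts scaled to library size, worked out from the deposited log2 CPM values. The genotypes were compared by limma on the log2 values of all 14477 genes, and the false discovery rate (FDR) is Benjamini-Hochberg adjusted over all of them. A gene was called where the FDR was under 0.1 and the fold change was above 1.3. An exact permutation test of 1 gene over 3 mice against 3 cannot give a p below 0.1, and the p-values measure the spread between these 6 mice. The targeted gene, *Phf21b* (GRCm38 chromosome 15, 84785381 to 84856049, minus strand), had 2.15, 3.57, and 3.87 CPM in Phf21bΔ4/Δ4 replicates 2, 3, and 6, below each Phf21b+/+ mouse, with an FDR of 0.141.

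Of the 10 immediate early genes, 1 was called higher in Phf21bΔ4/Δ4 mice, *Nr4a1*, and 0 were called lower. Over all listed genes, 0.553% were called higher and 0.663% were called lower. At an unadjusted p under 0.05 there were 2 members, *Nr4a1* and *Egr1*, both higher, while 23.6% of all genes were at such a p, 11.6% higher and 12% lower. The share of the members is near that background. In 3 members, *Nr4a1*, *Egr1*, and *Fosb*, all 3 Phf21bΔ4/Δ4 mice lay above all 3 Phf21b+/+ mice, as they did in 15% of all genes. In 0 members did they all lie below, as they did in 16% of all genes. The log2 change was above 0 in 9 of the 10 members and in 47.6% of all genes, *Fos* being the exception. The median log2 change was 0.30 over the members and -0.02 over all genes. The members are regulated by shared signals, so their changes are not 10 independent measurements.

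**Figure D1:**
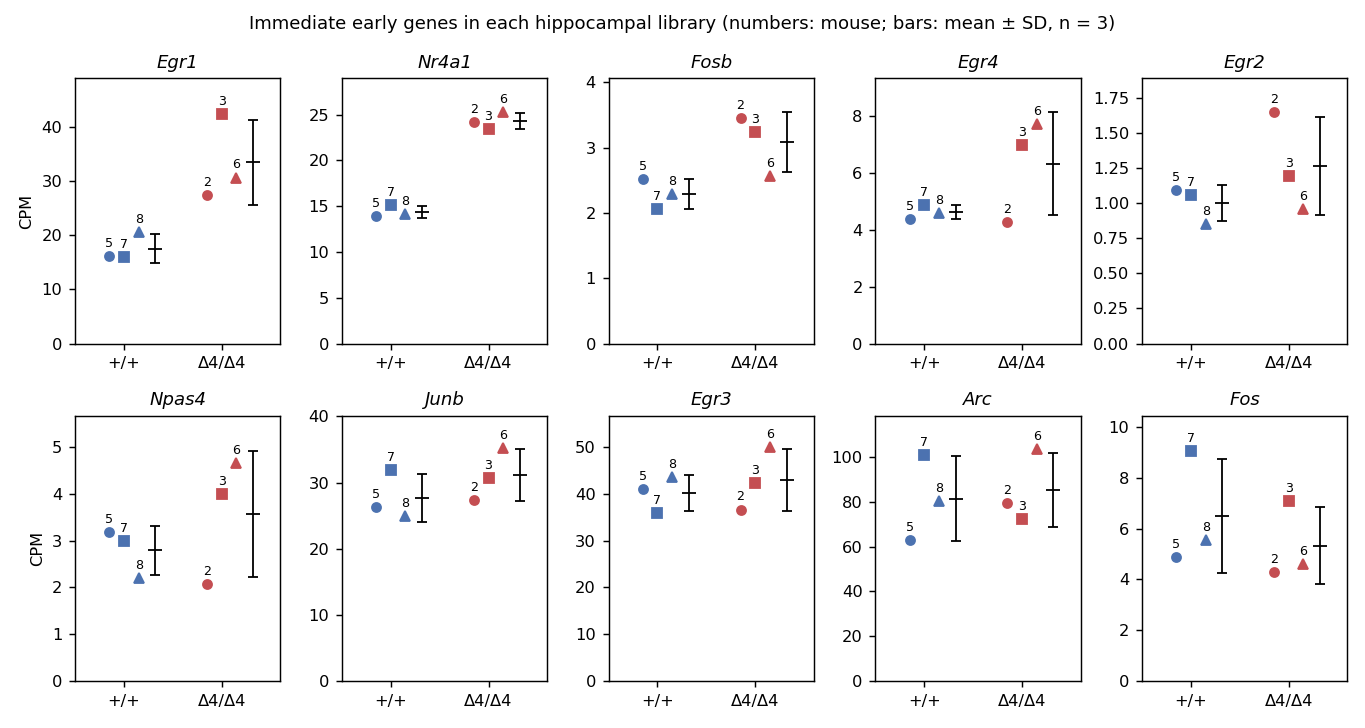
CPM of the 10 immediate early genes in each mouse, on axes that start at 0. Points are mice numbered by replicate, and the bars give the mean ± SD of 3 mice per genotype. The Phf21bΔ4/Δ4 mice lie above every Phf21b+/+ mouse for *Egr1*, *Nr4a1*, and *Fosb*, and the genotypes overlap in the other 7 panels.

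*Nr4a1* (ENSMUSG00000023034.7, GRCm38 chromosome 15, 101254269 to 101274795, plus strand) encodes an orphan nuclear receptor, also called NUR77, that binds DNA without a known hormone. It had 24.2, 23.4, and 25.3 CPM in Phf21bΔ4/Δ4 replicates 2, 3, and 6, and 13.9, 15.1, and 14.2 CPM in Phf21b+/+ replicates 5, 7, and 8. The mice of each genotype were close to each other, and the genotypes were far apart. The mean was 24.3 ± 0.923 CPM (SD, n = 3) against 14.4 ± 0.635 CPM (SD, n = 3), and the coefficients of variation of 3.80% and 4.41% were the lowest of the 10 members in both genotypes. *Nr4a1* rose 1.69-fold (log2 change 0.76, standard error 0.09, and FDR 0.0463 by limma), with a 95% interval of the fold change of 1.46 to 1.95. The study also reported *Nr4a1* as higher in the same libraries, by edgeR, so this call is not independent of that one. The log2 change stayed between 0.73 and 0.79 when each mouse was left out. The FDR was no longer under 0.1 without Phf21bΔ4/Δ4 replicate 2 (0.155) or without Phf21b+/+ replicate 5 (0.113), 7 (0.161), or 8 (0.191). These 4 fits called 9 to 28 genes in all, against 176 with all 6 mice. Rescaling each mouse to 6 pan-neuronal markers, an alternative chosen after the values were seen, ended the call, at a log2 change of 0.37 and an FDR of 0.128. That scaling shifts all genes of a mouse alike and moved the median of all genes to -0.41, so the change of *Nr4a1* relative to that median, 0.78, is the same on either scale by construction and says nothing of its stability.

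The early growth response (EGR) genes encode zinc finger transcription factors that bind GC-rich sites, and EGR1, EGR2, and EGR3 share the corepressors NAB1 and NAB2. *Egr1* (chromosome 18, 34859823 to 34864984, plus strand), also known as *Zif268*, is among the members used to mark active hippocampal neurons. Its level was 27.4, 42.3, and 30.7 CPM in Phf21bΔ4/Δ4 replicates 2, 3, and 6 and 16.1, 15.9, and 20.6 CPM in Phf21b+/+ replicates 5, 7, and 8. The genotypes did not overlap, and replicate 3 stood highest. The log2 change of 0.92 (standard error 0.19), or 1.89-fold with a 95% interval of 1.39 to 2.58, was the largest among the members, but its FDR of 0.116 was above the threshold and *Egr1* was not called. It was called with quantile normalization (FDR 0.0993) and median centring (0.0927), just under the threshold. It was also called under 3 settings that called far more genes over all than the 176 reported here. These were weighting of the mice by arrayWeights (log2 change 0.64, FDR 0.0306, 3549 genes called), pan-neuronal centring (0.53, FDR 0.0751, 6056 genes called, 5943 of them lower), and leaving out Phf21bΔ4/Δ4 replicate 6 (0.97, FDR 0.0458, 2830 genes called).

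The other 3 EGR genes overlapped between the genotypes. *Egr4* (chromosome 6, 85511121 to 85513589, minus strand) had 4.26, 6.95, and 7.70 CPM in Phf21bΔ4/Δ4 replicates 2, 3, and 6, while the Phf21b+/+ mice lay close together at 4.37, 4.85, and 4.58 CPM. Replicates 3 and 6 were above the Phf21b+/+ mice and replicate 2 was the lowest of all 6, so the log2 change of 0.41 had a standard error of 0.24 and an FDR of 0.322. *Egr2* (chromosome 10, 67535475 to 67542188, plus strand), which outside neurons is known for its part in myelination by Schwann cells, lay near the depth limit with 19 to 39 reads per mouse. It had 1.64, 1.19, and 0.957 CPM in Phf21bΔ4/Δ4 mice and 1.09, 1.06, and 0.854 CPM in Phf21b+/+ mice, a log2 change of 0.31 with a 95% interval of -0.45 to 1.07 and an FDR of 0.556. *Egr3* (chromosome 14, 70077203 to 70082614, plus strand), a target of EGR1, had 36.7, 42.4, and 49.98 CPM against 41.0, 36.0, and 43.7 CPM. Its log2 change was 0.09 (standard error 0.13, FDR 0.693), and the 95% interval of -0.23 to 0.41 excluded a change as large as that estimated for *Egr1*.

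*Fos*, *Fosb*, and *Junb* encode subunits of the dimeric transcription factor AP-1, in which a FOS protein pairs with a JUN protein. *Fosb* (chromosome 7, 19302696 to 19310051, minus strand), whose truncated ΔFosB product is stable and builds up with repeated activity, had 3.46, 3.24, and 2.57 CPM in Phf21bΔ4/Δ4 replicates 2, 3, and 6. It had 2.52, 2.07, and 2.29 CPM in Phf21b+/+ replicates 5, 7, and 8. The genotypes did not overlap, but replicate 6 and replicate 5 almost met, and the log2 change of 0.42 (standard error 0.21) had an FDR of 0.256. *Fosb* reads do not separate the full-length and truncated transcripts in a table of whole genes.

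*Fos* (chromosome 12, 85473890 to 85477273, plus strand) was the only member with a mean below that of Phf21b+/+ mice. Its level was 4.30, 7.10, and 4.61 CPM in Phf21bΔ4/Δ4 replicates 2, 3, and 6 and 4.89, 9.07, and 5.57 CPM in Phf21b+/+ replicates 5, 7, and 8. The highest value was that of Phf21b+/+ replicate 7, and the log2 change of -0.27 (standard error 0.30, FDR 0.580) was -0.0048 without that mouse. *Junb* (chromosome 8, 84974484 to 84978718, minus strand) had 27.3, 30.7, and 35.2 CPM against 26.3, 31.8, and 24.9 CPM, a log2 change of 0.17 (standard error 0.14, FDR 0.456). *Junb* overlaps *Prdx2* on the opposite strand, and whether reads were counted by strand is not given in the sources used here, so some of its reads could belong to *Prdx2*.

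*Npas4* (chromosome 19, 4984355 to 4990316, minus strand) encodes a transcription factor that pairs with ARNT2 and is induced in neurons by calcium entry. It had 2.07, 4.001, and 4.65 CPM in Phf21bΔ4/Δ4 replicates 2, 3, and 6 and 3.18, 2.996, and 2.20 CPM in Phf21b+/+ replicates 5, 7, and 8. As for *Egr4*, replicates 3 and 6 were the highest of the 6 mice and replicate 2 was the lowest, and the FDR was 0.605. *Arc* (chromosome 15, 74669083 to 74672570, minus strand), whose protein helps remove AMPA receptors from the synapse, was the most abundant member with 79.7, 72.5, and 104 CPM against 63.1, 101, and 80.4 CPM. The ranges of the genotypes overlapped for most of their length, with a log2 change of 0.08, a 95% interval of -0.41 to 0.56, and an FDR of 0.829. *Arc* and *Nr4a1* share chromosome 15 with *Phf21b*, at distances of 10.1 and 16.4 Mb.

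The members did not vary as 1 block across the mice. Phf21bΔ4/Δ4 replicate 6 was the highest of the 6 mice for 6 members (*Junb*, *Egr3*, *Egr4*, *Arc*, *Npas4*, and *Nr4a1*), and replicate 2 was the highest for *Fosb* and *Egr2* but the lowest for *Fos*, *Egr4*, and *Npas4*. The number of members above the Phf21b+/+ mean was 4, 9, and 8 in Phf21bΔ4/Δ4 replicates 2, 3, and 6 and 4, 7, and 4 in Phf21b+/+ replicates 5, 7, and 8. Summed over the 10 genes, the level was 211, 234, and 265 CPM in Phf21bΔ4/Δ4 mice and 176, 220, and 199 CPM in Phf21b+/+ mice, so that Phf21b+/+ replicate 7 lay above Phf21bΔ4/Δ4 replicate 2. This sum is mostly that of *Arc*, *Egr3*, and *Junb*.

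Per kilobase of exon the members spanned a 90.6-fold range in Phf21b+/+ mice. In RPKM (CPM divided by the exon length in kb), the order in Phf21b+/+ mice was *Arc* (26.7 ± 6.25, SD, n = 3), *Junb* (12.03 ± 1.59), *Egr3* (9.14 ± 0.882), *Nr4a1* (4.10 ± 0.181), *Egr1* (3.91 ± 0.597), *Fos* (2.77 ± 0.955), *Egr4* (2.14 ± 0.114), *Npas4* (0.675 ± 0.126), *Fosb* (0.367 ± 0.0358), and *Egr2* (0.294 ± 0.0376). The ranges of neighbours overlapped for *Nr4a1* and *Egr1*, for *Egr1* and *Fos*, and for *Fos* and *Egr4*. Both genes of a pair were measured in the same mice, and their difference within each mouse was not tested. In Phf21bΔ4/Δ4 mice *Egr1* (7.47 ± 1.75 RPKM) stood before *Nr4a1* (6.93 ± 0.263 RPKM) and *Egr4* before *Fos*, while the other members kept their places.

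**Figure D2:**
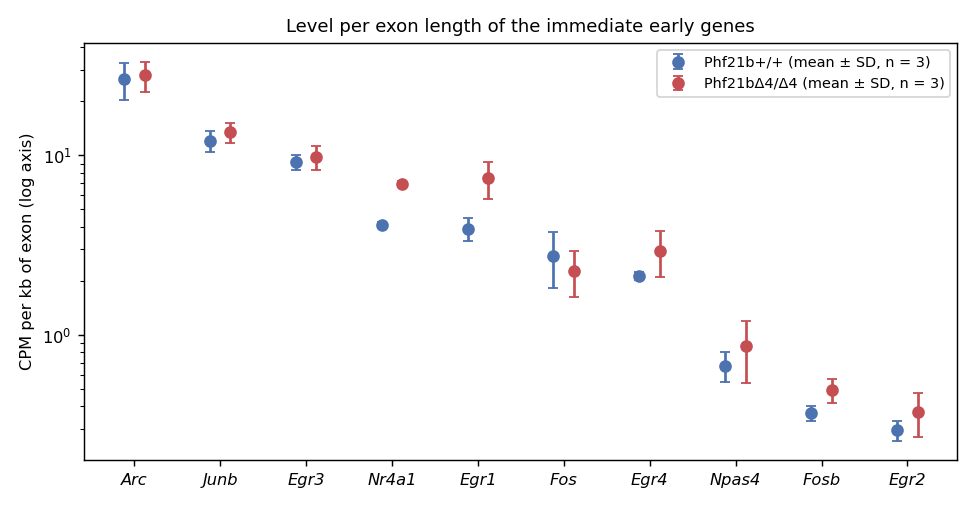
Level of the 10 immediate early genes per kilobase of exon (RPKM, log axis) in each genotype, as the mean ± SD of 3 mice, ordered by the level in Phf21b+/+ mice. The levels run from *Arc* at 26.7 to *Egr2* at 0.294 RPKM in Phf21b+/+ mice, and the error bars of the genotypes do not meet for *Nr4a1*, *Egr1*, and *Fosb*.

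The genes whose levels across the 6 mice were most like the mean profile of the members were *Shb*, *Itpr1*, *Lypd1*, *Omg*, and *Dpagt1*. Likeness was the root mean square difference between the log2 CPM of a gene, centred on its own mean, and the mean of the 10 members' centred values. It was 0.0530 for *Shb*, 0.0588 for *Itpr1*, 0.0603 for *Lypd1*, 0.0725 for *Omg*, and 0.0737 for *Dpagt1*, while the median of the 12957 genes compared was 0.253. The members themselves lay farther from their own mean profile than these genes, from 0.116 for *Junb* to 0.410 for *Fos*.

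Other genes of the same pathway were compared in lists by role. Of 20 other immediate early transcription regulators, 18 were listed, and 0 were called in either direction. At an unadjusted p under 0.05 there were 5 of the 18, 2 higher and 3 lower, a share near the 23.6% of all genes, and the median log2 change of the list was 0.04. The members of this list closest to a call were *Btg2*, *Atf3*, and *Per1*. *Btg2*, an antiproliferative gene induced with the *Fos* and *Egr* genes, had 15.5, 12.1, and 15.7 CPM in Phf21bΔ4/Δ4 replicates 2, 3, and 6 and 23.4, 22.1, and 20.7 CPM in Phf21b+/+ replicates 5, 7, and 8. All Phf21bΔ4/Δ4 mice lay below the Phf21b+/+ mice, opposite to *Nr4a1* and *Egr1*, with a log2 change of -0.62 (standard error 0.13, FDR 0.116). *Atf3*, a stress-induced factor, had a log2 change of -1.63 (FDR 0.167) on 10 to 65 reads per mouse, and *Per1*, a clock gene that is also induced through CREB, had a log2 change of 0.63 (FDR 0.169).

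Of the 30 activity-regulated effectors, all of which were listed, 2 were called higher and 0 lower, against 0.553% and 0.663% of all genes. The 2 called, *Homer1* and *Vgf*, were also reported as higher by the study in the same libraries, so these calls are not independent of it. At an unadjusted p under 0.05 there were 5 higher and 3 lower of the 30, also near the share of all genes, and the median log2 change was -0.09. *Homer1*, a scaffold of group 1 metabotropic glutamate receptors with a short activity-induced form, had 253, 246, and 274 CPM in Phf21bΔ4/Δ4 mice and 174, 164, and 183 CPM in Phf21b+/+ mice. It rose 1.49-fold (log2 change 0.57, FDR 0.0647), and the table does not separate its short form. *Vgf*, a secreted peptide precursor, rose 1.88-fold from 54.4 ± 8.77 to 102 ± 16.1 CPM (SD, n = 3 each, FDR 0.0838). *Dusp5*, a phosphatase of the ERK kinases, had a log2 change of 0.73 and was not called (FDR 0.141). Both calls in this list were kept with Phf21bΔ4/Δ4 replicate 6 left out (FDR 0.0215 for *Homer1* and 0.0216 for *Vgf*) and lost with any 1 of the other 5 mice left out, at an FDR of 0.111 to 0.242 for *Homer1* and 0.113 to 0.307 for *Vgf*. With the same prior variance for all genes both were lost (FDR 0.121 and 0.141), *Homer1* also with quantile normalization (0.109) and pan-neuronal centring (0.288), and *Vgf* under a minimum mean log2 CPM of 1 (0.1001).

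Upstream of the members, 1 of the 19 kinases and phosphatases was called higher and 0 were called lower. This was *Camk4*, the nuclear calcium/calmodulin-dependent kinase that phosphorylates CREB, which rose 1.93-fold to 97.2, 99.3, and 73.2 CPM from 52.7, 39.0, and 48.2 CPM (FDR 0.0809). This call also remained only without Phf21bΔ4/Δ4 replicate 6 (FDR 0.0150) among the 6 fits with 1 mouse left out, and the FDR was 0.113 to 0.281 in the other 5. With the same prior variance for all genes its FDR was 0.139. *Ppp3cb*, a catalytic subunit of calcineurin, had a log2 change of 0.28 (FDR 0.155), and *Rps6ka1*, a ribosomal S6 kinase, one of -0.29 (FDR 0.167). Of the 16 upstream transcription factors and coactivators, 0 were called by limma, and the median log2 change was 0.11. At an unadjusted p under 0.05 there was 1 of the 16, against 23.6% of all genes. *Mrtfa*, a cofactor of serum response factor, had a log2 change of 0.35 (FDR 0.163), *Mef2a* of 0.21 (FDR 0.214), and *Crebbp*, the CREB-binding acetyltransferase, of 0.36 (FDR 0.282). Of the 8 partner proteins of the members, 0 were called by limma, and the median log2 change was 0.13. At an unadjusted p under 0.05 there were 2 of the 8, near the 23.6% of all genes. *Arnt2*, the partner of NPAS4, had a log2 change of 0.82 (FDR 0.157) with 305, 341, and 175 CPM in Phf21bΔ4/Δ4 mice and 157, 125, and 168 CPM in Phf21b+/+ mice. *Atf2* had a log2 change of 0.21 (FDR 0.195), and *Nab1*, a corepressor of EGR1, EGR2, and EGR3, of -0.20 (FDR 0.295).

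**Figure D3:**
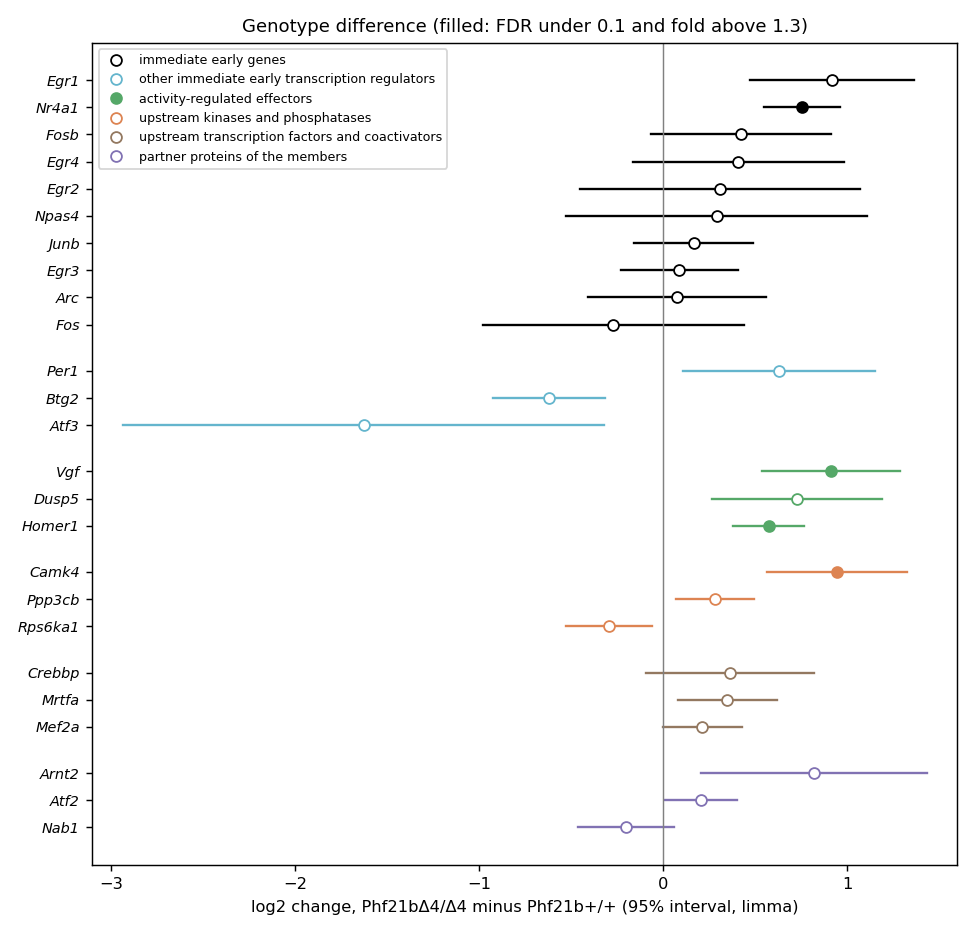
Log2 change of the 10 immediate early genes and of 15 named pathway genes, Phf21bΔ4/Δ4 minus Phf21b+/+, with the 95% interval from limma. Filled points (*Nr4a1*, *Vgf*, *Homer1*, and *Camk4*) passed the FDR of 0.1 and the 1.3-fold change. The interval of *Nr4a1* is the narrowest among the immediate early genes, and that of *Btg2* lies wholly below 0.

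Markers of cell types and neighbouring regions also differed between the libraries. These lists were chosen with earlier results of these data known, and most of the called markers are among the genes the study reported as changed in the same libraries. The counts of called markers are therefore not independent evidence about a region. The summed level of 7 CA1 pyramidal neuron markers was 884 to 992 CPM in Phf21bΔ4/Δ4 mice and 305 to 379 CPM in Phf21b+/+ mice, with 3 of the 7 called higher. All 6 dentate granule cell markers had a log2 change below 0, 1 of which (*Pdzd2*) was called, and their sum was 169, 174, and 422 CPM in Phf21bΔ4/Δ4 replicates 2, 3, and 6 against 504 to 584 CPM. All 9 medial habenula markers were called lower, at a sum of 6.003 to 9.87 against 159 to 214 CPM, and *Pou4f1*, *Irx2*, and *Chat* had at most 3 reads in each Phf21bΔ4/Δ4 mouse. The 6 listed thalamus markers summed to 49.3 to 167 against 326 to 496 CPM, with 2 called lower. Of 8 interneuron markers 1 (*Gad2*) was called higher, with a sum of 698 to 849 against 475 to 541 CPM, and of 6 pan-neuronal markers 0 were called by limma and 3 had an unadjusted p under 0.05, with a sum of 6948 to 8389 against 5164 to 6633 CPM. Choroid plexus markers summed to 23.8 to 82.4 CPM in Phf21bΔ4/Δ4 mice and ranged from 31.6 CPM in Phf21b+/+ replicate 5 to 15682 CPM in replicate 7, the mouse with the highest *Fos*. The Y-linked genes *Ddx3y*, *Uty*, *Kdm5d*, and *Eif2s3y* were not listed in any mouse. *Xist*, the X-linked gene of the same list, had 90.3 to 216 CPM in Phf21bΔ4/Δ4 mice and 86.9 to 145 CPM in Phf21b+/+ mice. Both point to female mice in each genotype, although the sex is not labelled.

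Libraries that stood apart included Phf21bΔ4/Δ4 replicate 6, by its dentate markers, and Phf21b+/+ replicate 7, by its choroid plexus markers. Phf21bΔ4/Δ4 replicate 3 had the highest sum of neocortex markers (346 CPM) and the lowest of CA3 markers (153 CPM). Without replicate 6 the log2 change of *Nr4a1* was 0.73 (FDR 0.0166, in a fit that called 2830 genes) and that of *Egr1* was 0.97. Without replicate 7 they were 0.79 (FDR 0.161, in a fit that called 14 genes) and 0.85. Without replicate 3 they were 0.78 (FDR 0.0958, in a fit that called 45 genes) and 0.74. The summed CA1, interneuron, and pan-neuronal markers were higher, and the dentate, thalamus, and habenula markers lower, in the same 3 mice in which *Nr4a1* and *Egr1* were higher. The part of these markers in the differences was not tested. The 7 glucocorticoid-induced genes, which respond to stress hormone, summed to 423 to 531 CPM in Phf21bΔ4/Δ4 mice and 468 to 491 CPM in Phf21b+/+ mice, with 0 called by limma and 1 at an unadjusted p under 0.05. The 5 heat shock genes summed to 317 to 371 CPM and 263 to 286 CPM, also with 0 called by limma and 1 at an unadjusted p under 0.05.

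**Figure D4:**
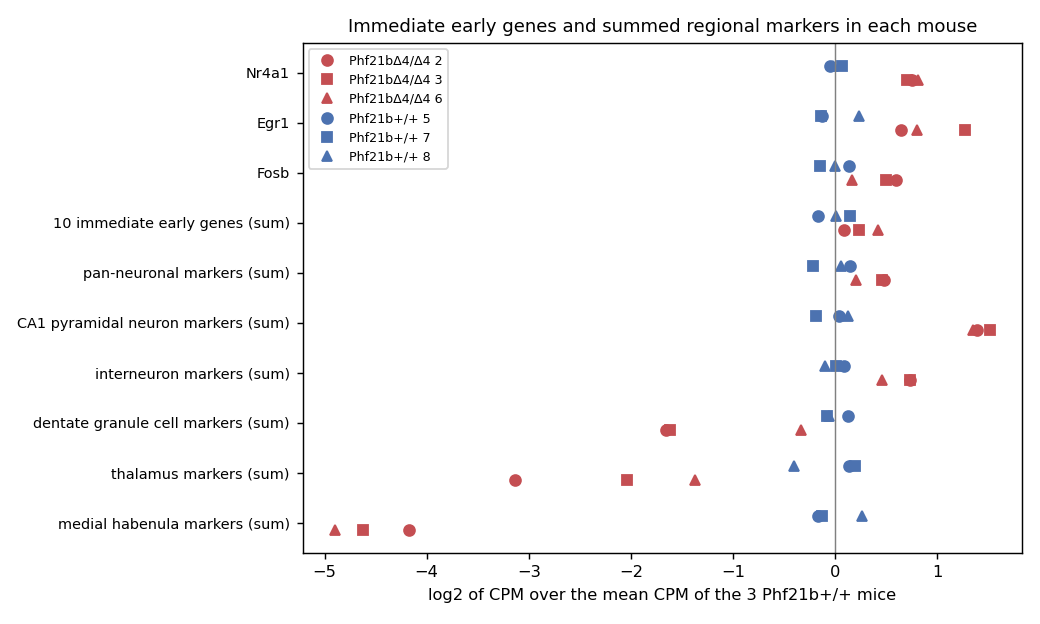
Log2 ratio of each mouse to the mean of the 3 Phf21b+/+ mice, for *Nr4a1*, *Egr1*, *Fosb*, the sum of the 10 immediate early genes, and the summed markers of 6 cell types or regions. Symbols are mice, and colors are genotypes. The 3 Phf21bΔ4/Δ4 mice lie together for *Nr4a1* (0.70 to 0.81) and CA1 markers (1.35 to 1.51), and replicate 6 lies apart from replicates 2 and 3 for the dentate markers (-0.34 against -1.66 and -1.61).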

How the data were processed

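RNA from the hippocampus of 6 mice was made into libraries with a kit that removes ribosomal RNA. According to the study's methods and the submitters' processing notes, the authors removed low-quality bases with Trimmomatic 0.39, aligned the reads to GRCm38 with STAR 2.7.3a, and counted them per GENCODE gene with featureCounts (Subread 1.6.4). The authors filtered at a CPM of 1 or more in 2 or more samples and scaled the libraries with edgeR. The values they deposited are log2 CPM of 14477 genes, and the prior count and the strand setting are not given in the sources used here. In the log2 values 100% came out as whole reads within 0.1 with a mean prior of 0.1 reads, and CPM and reads were worked out from them. A level of 3 reads was taken as the floor, for counting error only.

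Differences between genotypes were tested by limma 3.58.1 (R 4.3.3) on the log2 values as deposited, using lmFit and eBayes with a trend of variance on mean level, 2-sided and with no covariate. The thresholds of a call, on FDR and fold change, are those of the study's methods, while the authors tested counts with edgeR, which was not used here. On simulated log2 values the test recovered changed genes, and in a simulation with no change it called 0. The simulated mice had the same small spread beyond counting noise for all genes and did not differ in tissue content. The real replicates differed by more than the counting noise, so the simulations do not give the error rate in these data. All 6 mice were kept. Gene positions and exon lengths come from GENCODE M21 (GRCm38), in which 14277 symbols (98.6%) were found, and promoter sequences come from RefSeq (GRCm38.p6), with an entry for 11292 of the listed genes. Python 3.11.15 was used with NumPy 2.4.6, pandas 2.3.3, matplotlib 3.10.9, and SciPy 1.17.1.

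The members, lists, and tests were chosen with earlier results of these data known. Named genes are the members, *Phf21b*, from each pathway list every called gene and otherwise those with the smallest unadjusted p up to 3, the 5 genes most like the members (mean log2 CPM of at least 1), and markers that moved with a result. *Prdx2* was named for its overlap with a member. Marker lists not described in full in the text (CA2, CA3, neocortex, astrocyte, oligodendrocyte, microglia, endothelial, and blood) are summarized with the other observations. Alternatives tried were 1 common prior variance, robust eBayes, arrayWeights, a minimum mean log2 CPM of 1, log2(CPM + 1), log2(CPM + 0.1), quantile normalization, median centring, voom on recovered reads, no fold threshold, an FDR under 0.05 in place of the study's threshold, leaving out each mouse, and, chosen after seeing the data, centring on the 6 pan-neuronal markers.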

Additional observations from a re-analysis of the deposited data

How the results depend on the processing

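No paired analysis was possible because the litter of each mouse is not labelled. The number of immediate early genes called higher, 1 as reported, was 4 with arrayWeights, which called 10.2% of all genes higher and 14.3% lower, and 2 with quantile normalization (0.421% of all genes higher) or median centring (0.718%). There were 0 called lower under any alternative. Leaving out each mouse gave 0 to 2, with 0 without Phf21bΔ4/Δ4 replicate 2 or any Phf21b+/+ mouse and 2 without Phf21bΔ4/Δ4 replicate 6, a fit that called 10.3% of all genes higher and 9.29% lower. The median log2 change of the members was 0.30 as reported, 0.15 with arrayWeights, 0.20 with log2(CPM + 1), 0.61 with quantile normalization, and -0.091 with pan-neuronal centring, which moved the median of all genes to -0.41, and 0.16 to 0.37 with each mouse left out.

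For the other lists, to be read against the shares of all genes above, arrayWeights gave 4 other immediate early regulators higher and 4 lower, 5 effectors higher and 5 lower, 1 kinase or phosphatase lower, 2 upstream factors lower, and 3 partner proteins higher. Pan-neuronal centring gave 7 other regulators, 12 effectors, 7 kinases or phosphatases, 3 upstream factors, and 2 partners lower, and 1 effector higher, while it called 41.1% of all genes lower and 0.781% higher. The effectors called higher were 0 with the same prior variance for all genes or an FDR under 0.05, and 1 with quantile normalization or a minimum mean log2 CPM of 1. The kinases and phosphatases called higher were 0 with the same prior variance or an FDR under 0.05. Leaving out each mouse gave 0 to 6 effectors higher and 0 to 9 lower, 0 to 2 other regulators higher and 0 to 4 lower, 0 to 1 kinases higher and 0 to 1 lower, 0 to 1 upstream factors lower, and 0 to 3 partners higher. The high ends of these ranges came without Phf21bΔ4/Δ4 replicate 6.

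Changes that turned in direction under pan-neuronal centring were those of *Junb* (-0.22), *Egr2* (-0.082), *Egr3* (-0.30), *Arc* (-0.32), *Npas4* (-0.10), *Ppp3cb* (-0.11), *Mrtfa* (-0.042), *Mef2a* (-0.18), *Crebbp* (-0.027), and *Atf2* (-0.18), all uncalled with the values as deposited. *Egr3* was -0.12 with arrayWeights and *Arc* -0.0083 with quantile normalization, and with each mouse left out *Arc* ranged from -0.10 to 0.24 and *Egr3* from -0.024 to 0.20. Apart from what fewer mice or a moved median bring with them, the cause was not tested. With 19 to 39 reads per mouse, depth limits *Egr2* most among the members.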

Other observations

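Values of the remaining marker lists are given for completeness. The 5 CA2 markers summed to 134 to 285 CPM in Phf21bΔ4/Δ4 mice and 215 to 235 CPM in Phf21b+/+ mice, and the 5 CA3 markers to 153 to 335 against 294 to 361 CPM, with 0 called by limma and 2 and 1 at an unadjusted p under 0.05. The 4 listed neocortex markers summed to 104 to 346 against 105 to 186 CPM, with 0 called by limma and 1 at an unadjusted p under 0.05, and the highest value was that of Phf21bΔ4/Δ4 replicate 3, the mouse with the highest *Egr1*. Of 6 astrocyte markers, *Aqp4* was called lower, and the sum was 1732 to 2056 against 2046 to 2247 CPM. Oligodendrocyte markers summed to 5776 to 8819 against 6980 to 9703 CPM, microglia markers to 286 to 304 against 266 to 293 CPM, endothelial markers to 132 to 170 against 94.4 to 139 CPM, and blood markers to 39.1 to 71.4 against 33.0 to 110.3 CPM. In these last 4 lists 0 were called by limma, and 0, 1, 3, and 0 had an unadjusted p under 0.05.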
